A study of Mus musculus with 6 samples.

Results

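Immediate early genes and the feedback genes of the ERK pathway were followed in mouse embryonic stem cells after knockdown of p/CIP. They are 32 genes out of the 19938 measured, taken by exact gene symbol, with the brightest probe set standing for a gene that had several. All 32 were measured: 12 AP-1 and Egr transcription factor genes, 12 feedback genes (Dusp, Spry, Spred and Etv) and 8 other immediate early genes. The cells were of the E14 line, a mouse embryonic stem cell line, grown on plates and transfected with siRNA 1 against p/CIP (2 arrays), with siRNA 2 against p/CIP (2 arrays), or with pooled non-specific siRNAs as control (2 arrays). p/CIP is the p160 coactivator encoded by Ncoa3, and the study asked which transcripts depend on it. Whether 2 replicates were grown and transfected apart is not in the labels, and p-values here reflect nothing beyond the scatter among these 6 arrays, which may be technical. The time between transfection and RNA extraction is not given in the sources used here.

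ERK is the last kinase of the cascade that runs from growth factor receptors through Ras, Raf and MEK. Its activity, together with serum response factor and its Ets-type partners, switches on immediate early genes within minutes, without new protein synthesis, and many of these encode transcription factors of the AP-1 and Egr families. A second set of targets holds the pathway back: Dusp genes encode phosphatases of MAP kinases, and Sprouty and Spred proteins act on the steps around Ras and Raf. In mouse embryonic stem cells the pathway is driven largely by FGF4 and is known for moving cells out of the naive state.

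Levels are given as log2 values as deposited, and a change is a log2 difference between group means, p/CIP siRNA minus control siRNA unless stated, with its standard error from limma. A gene was called at an adjusted p under 0.05 over all 19938 genes. The target itself, Ncoa3, read 10.71 and 10.93 with siRNA 1, 10.71 and 10.92 with siRNA 2, and 12.33 and 12.28 with control siRNA. It fell 2.81-fold over both siRNAs (limma adjusted p = 0.0287), passed with siRNA 1 (0.0452) and not with siRNA 2 (0.0742). The stem cell markers were bright, with 8 of 8 above the level of dim genes, set at 6.34 from odorant receptor genes. Of the other cell types, extraembryonic endoderm markers were present (5 of 6 above that level, with Afp dim), as were 4 of 5 trophoblast markers, with Elf5 dim. Of the 7 fibroblast markers Postn, Lum and Dcn were dim, while Col1a1, Col1a2, Col3a1 and Thy1 lay above the level of dim genes. The 3 mesoderm and 3 neural markers measured also lay above it. Array siRNA 1 replicate 2 had the narrowest spread of values, with an interquartile range of 3.13, against 3.33 to 3.45 on the other arrays. With 6 arrays, their number limits the precision.

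For both siRNAs together against control, no member passed the test. limma called 0 of 32 members, against 14 of 19938 genes, or 0.0702%, all of which were lower. At an unadjusted p under 0.05, 4 members were higher, a rule that 3.86% of all genes met, and 2 were lower, a rule that 4.86% of all genes met. Changes of the members ran from -0.29 to 0.40, with a median of 0.07, beside 0.01 over all genes. On all 4 knockdown arrays 9 members lay above both control arrays and 5 below them. This is 28.1% and 15.6% of members, where 8.83% and 10.1% of all genes lay so. Members were chosen with earlier results of these data known, so these shares are descriptions. The summed level of the 8 stem cell markers, as the log2 of the sum of their unlogged values, separated the same arrays: it ran from 15.39 to 15.52 with siRNA 1, 15.42 to 15.51 with siRNA 2 and 15.57 to 15.66 with control siRNA. These 8 markers did not move alike, with pooled changes from -0.78 for Klf4 to 0.06 for Dppa5a, the brightest. None of the 8 was called. The part of their summed level in the members' values was not tested. In such bulk samples fewer cells of a type and less RNA per cell cannot be told apart.

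**Figure D1:**
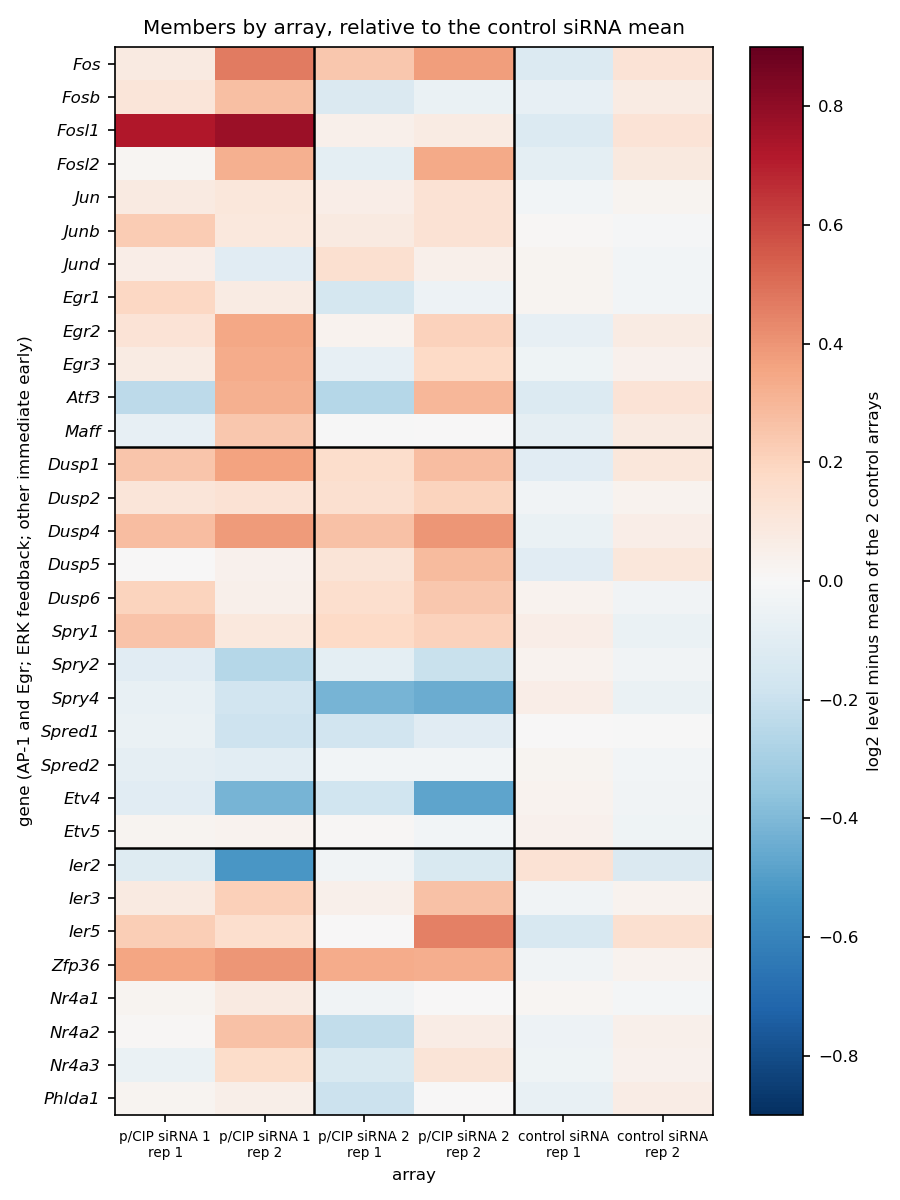
Each row is 1 of the 32 members and each column 1 array, and the colour gives the log2 level minus the mean of the 2 control arrays, with red above it and blue below it. Fosl1 is deep red on the siRNA 1 arrays and pale on the siRNA 2 arrays, and Zfp36 and Dusp4 are red on all 4 knockdown arrays. Spry4 is blue with siRNA 2 and pale with siRNA 1. Etv4 is blue on replicate 2 of each siRNA and paler on replicate 1.

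AP-1 factors are dimers of Fos and Jun proteins that bind DNA through leucine zippers, joined by relatives such as Atf3 and the small Maf protein Maff. Egr proteins are zinc finger factors of the same early response. All 12 of these genes had pooled changes above 0, as did 52.3% of all genes. Their median was 0.11, where the subgroup median varied between arrays of a group with a standard deviation of 0.117. With siRNA 2 alone 10 of the 12 changes were above 0, against 47.2% of all genes. Fosl1, which encodes the Fos relative Fra-1, had the largest pooled change. It read 9.70 and 9.75 with siRNA 1, 9.03 and 9.06 with siRNA 2, and 8.86 and 9.11 with control siRNA. Only the siRNA 1 arrays stood clear of control, while the siRNA 2 arrays lay between the 2 control arrays. Its pooled change of 0.40 (standard error 0.0871, limma adjusted p = 0.235) therefore averages over 2 siRNAs with unlike values.

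Fos, the founding member of the family, read 7.19 and 7.57 with siRNA 1, 7.34 and 7.48 with siRNA 2, and 6.98 and 7.23 with control siRNA. One siRNA 1 array lay just under the higher control array, and the other 3 knockdown arrays lay above both controls. The change of 0.29 did not pass (standard error 0.128, limma adjusted p = 0.584). Among the Jun genes, Junb read 8.41 and 8.27 with siRNA 1, 8.26 and 8.31 with siRNA 2, and 8.19 and 8.17 with control siRNA. Jun read 9.74 and 9.77 with siRNA 1, 9.72 and 9.79 with siRNA 2, and 9.64 and 9.68 with control siRNA. Both lay above control on all 4 knockdown arrays, by 0.13 for Junb and 0.09 for Jun. They were the only 2 of the 12 genes without overlap between the pooled groups, a share of 16.7%, near the 18.9% of all genes without overlap in either direction. Jund differed by 0.04.

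Egr1, a widely used readout of ERK activity, showed no common direction. It read 9.16 and 9.05 with siRNA 1, 8.82 and 8.93 with siRNA 2, and 9.004 and 8.951 with control siRNA, so siRNA 1 lay above control and siRNA 2 below it. The pooled change was 0.01 (standard error 0.0746, 95% interval -0.16 to 0.19, limma adjusted p = 0.969). Egr2 and Egr3 had pooled changes of 0.18 and 0.13, with overlap between the groups. Atf3, a stress-induced factor, had a pooled change of 0.03 with an interval from -0.45 to 0.51, since its arrays differed more within groups than between them. Fosl2 (0.15), Fosb (0.05) and Maff (0.04) also overlapped.

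Feedback genes lay on both sides of control. Of the 12, 10 did not overlap between the knockdown and control arrays, 5 above and 5 below, a share of 83.3%. Over all genes 18.9% did not overlap, and among the 9969 genes brighter than the median gene, as 11 of the 12 are, 23.6% did not. No feedback gene was called. The 5 Dusp genes all had changes above 0, with a median of 0.16, where 52.3% of all genes had such changes. Of the 5 Spry and Spred genes 4 had changes below 0, with a median of -0.13, as did 9502 of 19938 genes.

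Dusp4, which encodes a nuclear phosphatase of MAP kinases, read 10.48 and 10.59 with siRNA 1, 10.47 and 10.60 with siRNA 2, and 10.14 and 10.26 with control siRNA. The lowest knockdown array lay above the higher control array, and the 2 siRNAs gave nearly the same levels. Its change was 0.33, or 1.26-fold (standard error 0.0808, limma adjusted p = 0.292). Against the control array of the same replicate number, the 4 differences ran from 0.32 to 0.34.

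Dusp1, a nuclear phosphatase that is itself an immediate early gene, read 12.31 and 12.42 with siRNA 1, 12.22 and 12.34 with siRNA 2, and 11.96 and 12.16 with control siRNA. All 4 knockdown arrays were above both controls, with a change of 0.26. Dusp6, the cytoplasmic phosphatase specific for ERK, read 11.39 and 11.24 with siRNA 1, 11.35 and 11.43 with siRNA 2, and 11.22 and 11.16 with control siRNA. It was above control on all 4 arrays, the closest at 11.24 against 11.22 on the higher control array, and did not pass (0.16, standard error 0.0774, limma adjusted p = 0.613). Dusp2, which encodes a nuclear phosphatase, was 0.15 above control without overlap. Dusp5, whose product acts on nuclear ERK, was 0.11 above control, with both siRNA 1 arrays between the control arrays.

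The Sprouty genes, which encode membrane-bound inhibitors of receptor tyrosine kinase signalling, did not all lie on one side of control. Spry4 read 11.64 and 11.53 with siRNA 1, 11.29 and 11.26 with siRNA 2, and 11.77 and 11.64 with control siRNA. Both siRNA 2 arrays were clearly low, and the higher siRNA 1 array was 11.638 where the lower control array was 11.642. The pooled change was -0.28 (standard error 0.0748, limma adjusted p = 0.348). Spry2 read 10.26 and 10.10 with siRNA 1, 10.27 and 10.16 with siRNA 2, and 10.39 and 10.33 with control siRNA, a change of -0.16 without overlap. Spry1 lay on the other side, at 10.07 and 9.91 with siRNA 1, 9.99 and 10.03 with siRNA 2, and 9.87 and 9.76 with control siRNA, a change of 0.18 without overlap.

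The Spred genes encode Sprouty-related inhibitors of Ras signalling. Spred1 was 0.13 and Spred2 0.06 below control on the log2 scale, both without overlap. For Spred2 the nearest siRNA 2 and control arrays both read 11.00, and a second, dimmer probe set differed by -0.20. Etv4 and Etv5 encode Ets factors of the PEA3 group, induced by FGF signalling. Etv4 read 9.39 and 9.07 with siRNA 1, 9.30 and 9.01 with siRNA 2, and 9.52 and 9.45 with control siRNA. All 4 knockdown arrays lay below both controls, with a change of -0.29, and the 2 arrays of each siRNA lay further apart than the 2 control arrays. Etv5 differed by 0.01, and by 0.11 on a second, dimmer probe set.

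The separation of feedback genes depended on scaling. After quantile normalization, or after array medians were aligned, 3 of them lay below control without overlap in place of 5. Spry4 and Spred2 then overlapped. Of all genes 9.34% and 8.92% lay lower without overlap under these scalings. The higher ones were 5 after quantile normalization, with Dusp2 lost and Etv5 gained, and 4 with medians aligned, with Dusp6 lost. Of all genes 10.0% and 9.57% lay higher without overlap under these scalings. 

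**Figure D2:**
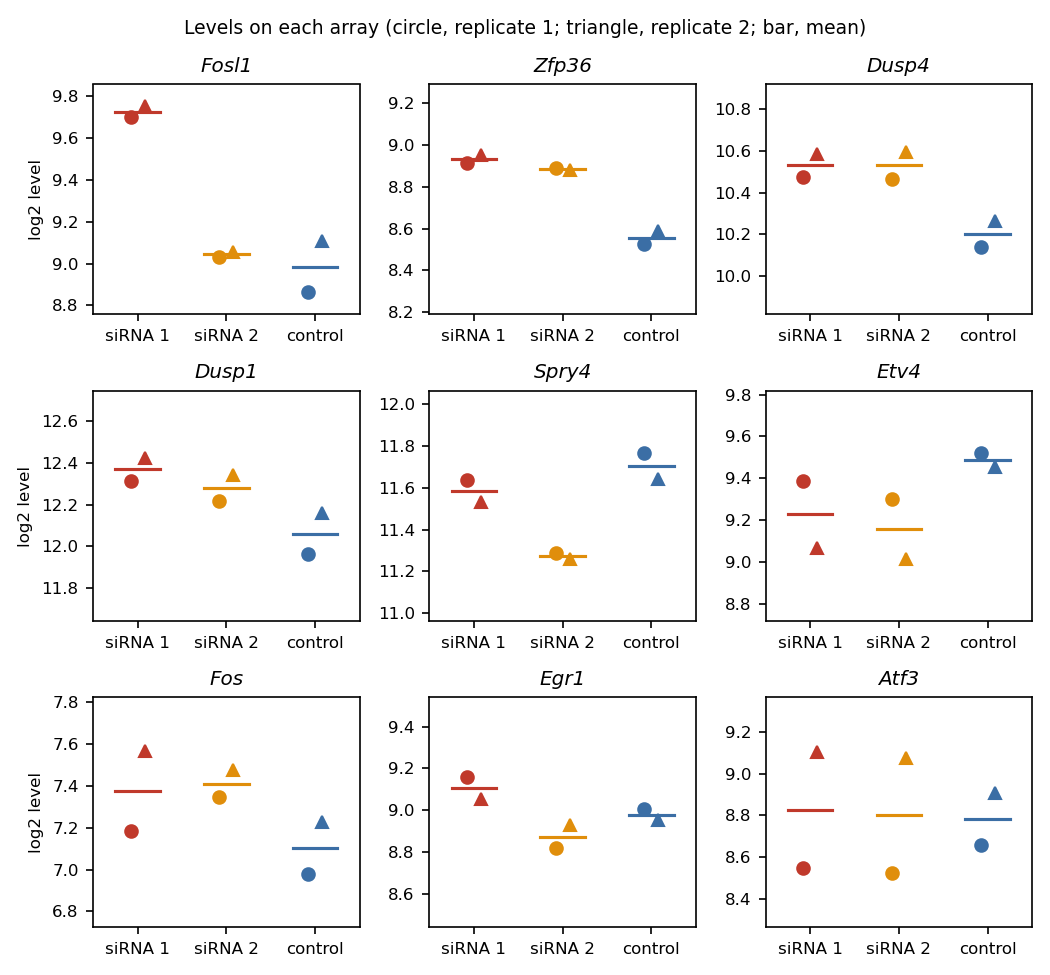
Log2 levels of 9 members on each array, with circles for replicate 1, triangles for replicate 2 and a bar at the mean of each group of 2; each panel spans the same log2 range. Zfp36 and Dusp4 lie above control with both siRNAs, Fosl1 stands apart with siRNA 1 and Spry4 with siRNA 2, and in Atf3 the replicates of every group lie further apart than the group means.

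Among the 8 other immediate early genes, Zfp36 had the smallest p of all members. It encodes tristetraprolin, which binds AU-rich elements and speeds the decay of mRNAs, among them those of early response genes. Zfp36 read 8.91 and 8.95 with siRNA 1, 8.89 and 8.88 with siRNA 2, and 8.52 and 8.59 with control siRNA. All 4 knockdown arrays lay at least 0.29 above the higher control array, and the arrays of a group differed little. Its change was 0.35, or 1.28-fold (standard error 0.0664, 95% interval 0.20 to 0.51, limma adjusted p = 0.186).

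Ier3 read 8.22 and 8.35 with siRNA 1, 8.18 and 8.40 with siRNA 2, and 8.11 and 8.17 with control siRNA. It lay above control on all 4 arrays, the closest at 8.18 against 8.17 on the higher control array, and the change of 0.15 did not pass (standard error 0.089, limma adjusted p = 0.666). Ier2 ran the other way, at 8.28 and 7.87 with siRNA 1, 8.36 and 8.26 with siRNA 2, and 8.53 and 8.26 with control siRNA, a change of -0.20 with overlap. Ier5 differed by 0.21 with overlap. The orphan nuclear receptor genes Nr4a1, Nr4a2 and Nr4a3 differed by 0.02, 0.03 and 0.02, and Nr4a3 was the only member at the level of dim genes. Phlda1, a pleckstrin homology-like gene, differed by -0.03. The median over the 8 genes was 0.02.

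The promoters of 3 members with CArG boxes or a CRE, the DNA elements through which serum response factor and CREB act on early genes, are shown here because Zfp36 and Dusp1 lay above control with both siRNAs and Dusp5 holds a pair of such boxes. Each line gives the 150 bases before the RefSeq start of the gene in GRCm38.p6, 5′ to 3′ on the gene's strand. Capitals mark a CArG box, a CRE (TGACGTCA) or an Egr site (GCGNGGGCG). They lie at chr7:28379229-28379378 (minus strand, Zfp36), chr17:26508473-26508622 (minus strand, Dusp1) and chr19:53528995-53529144 (plus strand, Dusp5).
Zfp36: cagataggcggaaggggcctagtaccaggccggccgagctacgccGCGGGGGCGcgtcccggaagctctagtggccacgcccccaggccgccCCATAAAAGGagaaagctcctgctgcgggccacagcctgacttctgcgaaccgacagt
Dusp1: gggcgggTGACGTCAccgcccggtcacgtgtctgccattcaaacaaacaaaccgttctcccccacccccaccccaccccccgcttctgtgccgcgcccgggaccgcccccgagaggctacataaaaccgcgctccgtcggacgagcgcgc
Dusp5: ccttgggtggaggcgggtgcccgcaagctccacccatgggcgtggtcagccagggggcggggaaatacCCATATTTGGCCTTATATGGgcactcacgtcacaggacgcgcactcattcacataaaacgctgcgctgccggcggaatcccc

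RefSeq windows of 300 bases, from 250 before to 50 after the start, were matched by symbol for 24 of the 32 members, and were not matched for Dusp4, Egr1, Egr3, Etv4, Fosl1, Ier2, Phlda1 and Spry4. Motifs were read on both strands, and no 2 overlapped in these windows. A CArG box was found in 3 of the 24 members (12.5%: Zfp36, Egr2 and Dusp5), against 488 of 27025 genes with a window (1.81%). Boxes outside these windows, or in members without a window, were not searched for. In Zfp36 the box started 58 bases before the start of the gene. The CRE was in 2 members, Dusp1 and Maff (8.33%, against 2.03% of genes). The Egr site was in 7 members (29.2%, against 6.27%): Zfp36, Nr4a1, Nr4a2, Dusp2, Fosl2, Fosb and Maff. The AP-1 site TGANTCA was in 0 of the 24, against 8.97% of genes, which says only that these letters are not in these windows. Base composition was not matched. Of the 3 genes with a CArG box, Zfp36 was 0.35 above control on the log2 scale, Egr2 0.18 and Dusp5 0.11. Egr2 and Dusp5 overlapped with control. Pooled changes lay above 0 for 25 of the 32 members (78.1%), against 52.3% of all genes. A link between motifs and changes was not tested.

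With siRNA 1 alone, 0 of 32 members were called, against 0.0702% of all genes. At an unadjusted p under 0.05, 4 members were higher (5.78% of all genes met this) and 0 were lower (6.37%). Both siRNA 1 arrays lay above both controls for 16 members and below for 5, which is 50% and 15.6%, against 22.9% and 20.5% of all genes. Of the AP-1 and Egr genes 7 of 12 lay above, among them all 3 Egr genes, and their median change was 0.17, beside 0.02 over all genes. Of the 12 feedback genes 10 did not overlap with control, 5 above and 5 below, where 43.4% of all genes and 49% of those brighter than the median gene did not. Fosl1 was 1.67-fold above control (0.74, standard error 0.101, limma adjusted p = 0.088). With the replicate number as a block its adjusted p was 0.029, the only call that the block made among the members. Fosl1 also passed without siRNA 1 replicate 1 (limma adjusted p = 0.0471) and with an intensity trend in eBayes (0.0214). Over all alternatives its adjusted p ran from 0.0214 to 0.842, the highest without control replicate 1, with changes from 0.62 to 0.87.

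Other members of small p with siRNA 1 were Zfp36 (0.38, standard error 0.0766, limma adjusted p = 0.176), Dusp4 (0.33, standard error 0.0932, adjusted p = 0.282) and Dusp1 (0.31, standard error 0.102, adjusted p = 0.341). Ier2 was 0.32 below control on the log2 scale with overlap (standard error 0.153, adjusted p = 0.441). Egr2 read 6.59 and 6.81 with siRNA 1, 6.49 and 6.67 with siRNA 2, and 6.39 and 6.54 with control siRNA. Its siRNA 1 change of 0.24 had a standard error of 0.114 (limma adjusted p = 0.441). The Egr2 arrays with siRNA 2 overlapped with control.

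With siRNA 2 alone, limma called 0 of 32 members and 0% of all genes. At an unadjusted p under 0.05, 2 members were higher, against 2.25% of all genes, and 1 was lower, against 2.99%. Both siRNA 2 arrays lay above both controls for 12 members and below for 6, which is 37.5% and 18.8%, against 16% and 19.8% of all genes. Of the feedback genes 11 of 12 did not overlap with control, 6 above and 5 below, among them all 5 Dusp genes above, where 35.8% of all genes and 40.7% of the brighter genes did not overlap. Both siRNA comparisons use the same 2 control arrays. Spry4 was 1.35-fold below control (-0.43, standard error 0.0864, limma adjusted p = 0.373). Zfp36 was at 0.33 (standard error 0.0766, adjusted p = 0.474) and Dusp4 at 0.33 (standard error 0.0932, adjusted p = 0.637). Fos (0.31, standard error 0.148), Junb (0.11, standard error 0.0835) and Ier3 (0.15, standard error 0.103) had adjusted p from 0.987 to 0.999.

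**Figure D3:**
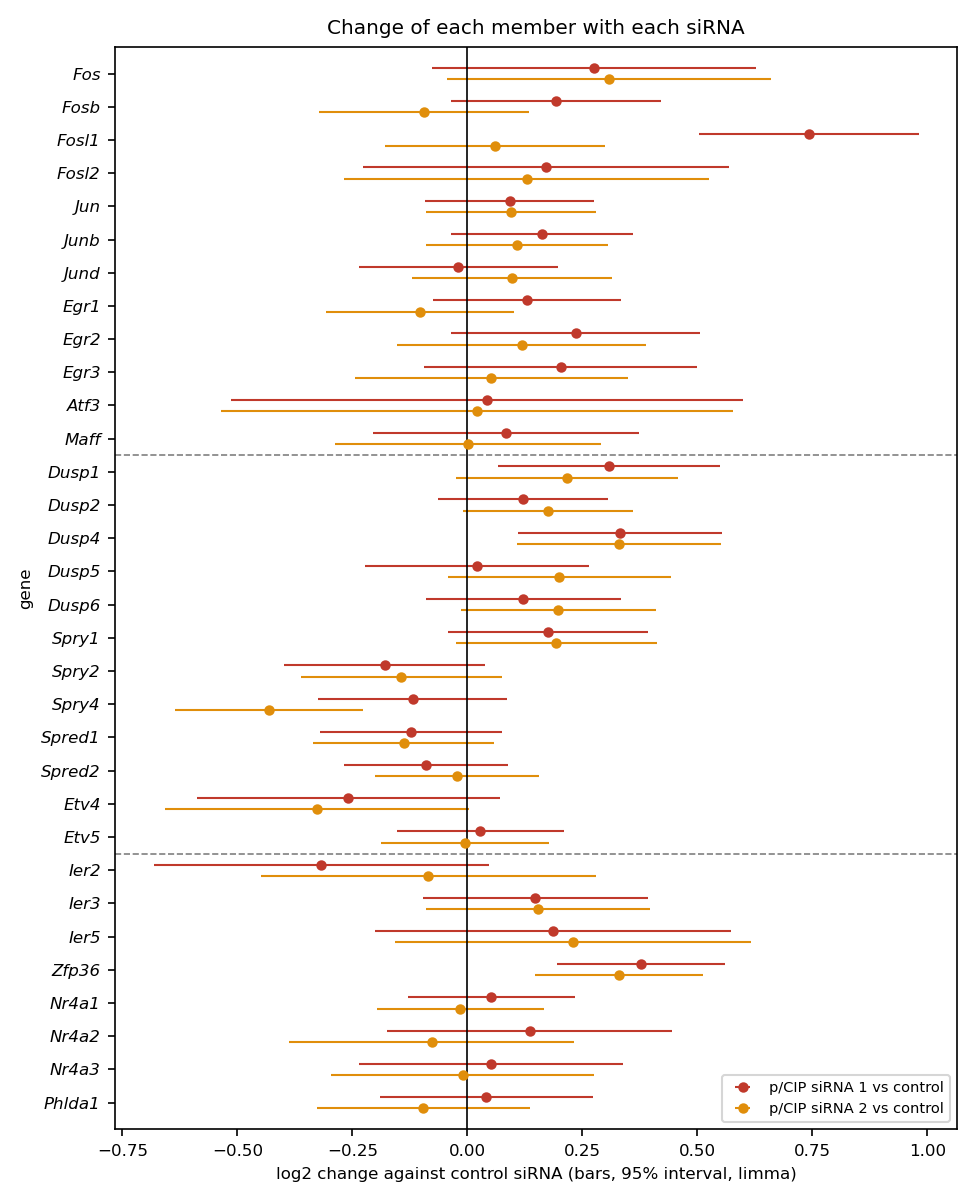
Log2 change of each member against control siRNA, with its 95% interval from limma, for siRNA 1 (red) and siRNA 2 (orange); the 2 comparisons share the control arrays. The intervals of Fosl1 lie apart, at 0.50 to 0.98 with siRNA 1 and -0.18 to 0.30 with siRNA 2, while those of Zfp36 and Dusp4 lie almost on each other.

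The siRNAs were then set against each other, siRNA 2 minus siRNA 1, where Ncoa3 itself differed by -0.00 (95% interval -0.27 to 0.26). No member was called, against 0% of all genes. At an unadjusted p under 0.05, 4 members were lower with siRNA 2 (3.54% of all genes met this) and 0 were higher (3.36%). Without overlap 3 members lay above and 8 below, against 15.2% and 20% of all genes. Fosl1 was 1.6-fold lower with siRNA 2 than with siRNA 1 (-0.68, standard error 0.101, limma adjusted p = 0.296), a difference near the whole of its siRNA 1 change. Spry4 differed by -0.31 (standard error 0.0864, adjusted p = 0.574).

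Fosb read 7.55 and 7.63 with siRNA 2 and 7.80 and 7.96 with siRNA 1, a difference of -0.29 (standard error 0.0961, limma adjusted p = 0.693), with control at 7.61 and 7.76. Egr1 differed by -0.23 without overlap (standard error 0.0861, limma adjusted p = 0.718). Dusp5 (0.18, standard error 0.102), Nr4a2 (-0.21, standard error 0.13) and Ier2 (0.23, standard error 0.153) had adjusted p from 0.746 to 0.753. The 3 members whose means lay nearest in the 2 siRNA groups were Dusp4, which differed by -0.00 (95% interval -0.22 to 0.22), Jun, by 0.00 (-0.18 to 0.19), and Ier3, by 0.01 (-0.24 to 0.25). Zfp36, above control with both siRNAs, differed by -0.05 (95% interval -0.23 to 0.13), and both siRNA 2 arrays lay below both siRNA 1 arrays.

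Arrays of the same replicate number shared part of their variation, and AP-1 and Egr genes took part in it. In each of the 3 groups the replicate 2 array lay above the replicate 1 array for 9 of these 12 genes (75%), against 28.5% of all genes, and for 4 of the 12 feedback genes (33.3%). Atf3 was 0.56 higher on replicate 2 with siRNA 1, 0.55 with siRNA 2 and 0.25 with control siRNA, several times its difference between groups. Fosl2 was 0.31, 0.43 and 0.18 higher in the same order. Ier2 was 0.41, 0.10 and 0.26 lower on replicate 2, and Etv4 was 0.32, 0.29 and 0.07 lower.

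Extraembryonic endoderm markers also differed between replicate numbers. Their summed level, as the log2 of the sum of unlogged values over 6 markers, was 11.10 and 11.89 on replicates 1 and 2 with siRNA 1, 11.13 and 11.53 with siRNA 2, and 10.97 and 11.49 with control siRNA. The ranges of the 3 groups overlap. Trophoblast markers were summed in the same way. Their sum ran from 12.81 to 13.24 with siRNA 1, 12.81 to 13.23 with siRNA 2 and 12.72 to 12.97 with control siRNA. It was each time higher on replicate 2, but it mostly reflects Krt8 (mean 12.66, against 9.29 for Hand1, the next brightest). Eomes was lower on replicate 2 in all 3 groups, while Hand1 and Cdx2 were higher. The part of these markers in the levels of the AP-1 and Egr genes was not tested. The summed stem cell markers ran the other way, each time lower on replicate 2.

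Within replicate numbers, each knockdown array was compared with the control array of the same number. In all 4 such differences 13 of the 32 members lay above control and 6 below (40.6% and 18.8%), against 17.2% and 18.5% of all genes. Those above were Fos, Fosl2, Jun, Junb, Egr2, Dusp1, Dusp2, Dusp4, Dusp6, Spry1, Ier3, Ier5 and Zfp36. Those below were Spry2, Spry4, Spred1, Spred2, Etv4 and Ier2. For Fos the differences were 0.21 and 0.34 with siRNA 1 and 0.37 and 0.25 with siRNA 2. Atf3 had opposite signs in the 2 replicates, at -0.11 and 0.20 with siRNA 1 and -0.13 and 0.17 with siRNA 2.

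**Figure D4:**
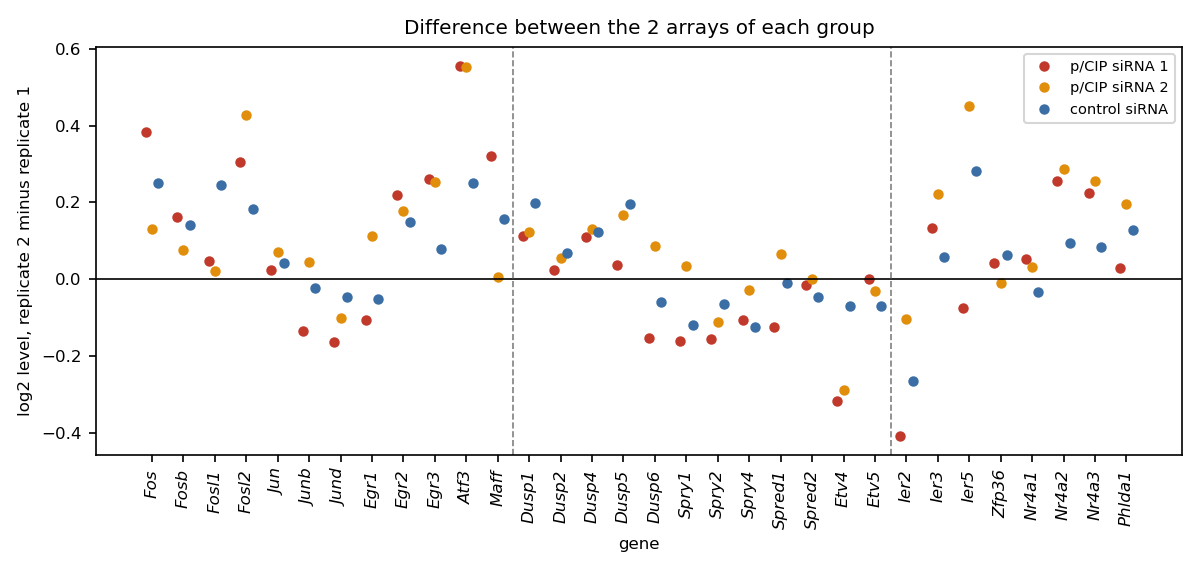
Log2 level on the replicate 2 array minus the replicate 1 array for each member, with 1 point per group; dashed lines part AP-1 and Egr genes, feedback genes and other immediate early genes. Atf3, Fosl2, Egr2 and Egr3 are above 0 in all 3 groups, and Etv4, Spry2 and Ier2 are below 0 in all 3.

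Other genes of the pathway came from a list of 37 ligands, receptors, adaptors, kinases and transcription factors, of which 29 were measured. None was called in the pooled comparison or with either siRNA, beside the 0.0702%, 0.0702% and 0% of all genes given above. In the pooled comparison 1 was lower at an unadjusted p under 0.05 and 0 were higher, a rule that 4.86% and 3.86% of all genes met. Without overlap 4 lay below control (13.8%) and 1 above (3.45%), against 10.1% and 8.83% of all genes, and the median change was -0.04. Fgf4, the main FGF ligand of these cells, read 11.75 and 11.37 with siRNA 1, 11.74 and 11.46 with siRNA 2, and 11.98 and 11.84 with control siRNA. All 4 knockdown arrays were below both controls, with a change of -0.33 (standard error 0.132, limma adjusted p = 0.551).

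Of the kinases, Map2k2, which encodes the ERK kinase MEK2, differed by -0.14 (standard error 0.0714, limma adjusted p = 0.618). Rps6ka3, which encodes the ERK-activated kinase RSK2, read 9.14 and 8.53 with siRNA 1, 9.26 and 9.28 with siRNA 2, and 9.38 and 9.32 with control siRNA. Its low value came from siRNA 1 replicate 2: the siRNA 1 change was -0.51 (standard error 0.181, limma adjusted p = 0.361), and it was called, at -0.82, when siRNA 1 replicate 1 was left out (0.0361). Among adaptors and brakes, Grb2 differed by -0.23 with siRNA 1 (standard error 0.0977, limma adjusted p = 0.416), and Nf1, which encodes a Ras GTPase-activating protein, by -0.18 (standard error 0.0885, adjusted p = 0.442). With siRNA 2 Grb2 differed by -0.04 and Nf1 by -0.06, both with overlap.

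Elk3 encodes an Ets partner of serum response factor. It read 9.34 and 9.44 with siRNA 1, 9.02 and 8.97 with siRNA 2, and 9.31 and 9.28 with control siRNA. Only the siRNA 2 arrays were low, by 0.30 against control on the log2 scale (standard error 0.0802, limma adjusted p = 0.601). Set against siRNA 1 the difference was -0.40, with an adjusted p of 0.424 in limma. Ksr1, a scaffold of the Raf-MEK-ERK module, differed by -0.15 with siRNA 2 (standard error 0.0795, limma adjusted p = 0.999) and by -0.05 with siRNA 1.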

How the data were processed

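The 6 arrays were deposited as 1 table of log2 values for 35556 probe sets. Partek is the software in the submitters' processing notes; its version and how the authors summarized, background-corrected and normalized the arrays were not given in the sources used here. The log base was inferred from the deposited range of 2.69 to 14.6. GEO's platform annotation gave 1 symbol to 21789 probe sets, several to 1621 (left unnamed) and none to 12146. The brightest probe set stood for a gene, which left 19938 genes; Etv5 and Spred2 had 2.

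limma 3.58.1 (R 4.3.3) fitted all 3 groups together (lmFit and eBayes), two-sided, with Benjamini-Hochberg adjustment over all genes. The fit was tested on simulated data with independent noise and 200 changed genes. The changes added there were larger than any of the members, so that test does not cover changes of their size. Members, lists and tests were chosen with earlier results of these data known. Full statistics were planned for the 2 members of smallest p per subgroup and contrast, and for Fos, Egr1, Dusp6 and Spry4. The same held for the 4 genes of smallest p of the pathway list. They were not printed for each of these genes in every contrast. Elk3 between the siRNAs was added after its values were seen. Dim genes had a mean at or below the 90th percentile of 1027 odorant receptor genes.

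Deviations from group means of arrays with equal replicate numbers were correlated across genes. The values were 0.464 (control and siRNA 1), 0.407 (control and siRNA 2) and 0.461 (both siRNAs), all above the set limit of 0.1. Arrays were therefore paired by number, but only in the replicate block and in the differences within replicate numbers. With 2 arrays a group the numbering decides only the signs, so this is weak support, and the labels name no shared culture or day. The main analysis had no block. Alternatives were the block, each array left out, quantile normalization, aligned medians, a dim filter, averaged probe sets, all probe sets and trend or robust moderation.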

Additional observations from a re-analysis of the deposited data

How the results depend on the processing

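The count of 0 members called held under each of 14 alternatives for both siRNAs together, for siRNA 2 and for the siRNAs against each other. For siRNA 1 it became 1 (Fosl1) with the replicate block, with a trend and with trend and robust moderation, and ran from 0 to 1 with arrays left out. The block changed no other call among the members. With it the pooled adjusted p in limma was 0.0703 for Zfp36, 0.0742 for Dusp4 and 0.084 for Fosl1. Without it these were 0.186, 0.292 and 0.235. Over all genes the block called 68 (both siRNAs), 241 (siRNA 1), 26 (siRNA 2) and 15 (between the siRNAs), where the main analysis called 14, 14, 0 and 0. Over all alternatives these counts ran from 0 to 74, 0 to 437, 0 to 26 and 0 to 23. The pathway list called with siRNA 1 ran from 0 to 1 with arrays left out. Ncoa3 kept a change of -1.54 to -1.43 with arrays left out. It lost its call in limma over all probe sets (-1.49, adjusted p = 0.166), when either siRNA 2 array was left out (0.146 without replicate 1, 0.0969 without replicate 2), and when either control array was (0.62 and 0.248). Feedback genes that lay lower without overlap, recounted by alternatives chosen after seeing the data, were 5 to 6 with arrays left out and 3 with quantile normalization or aligned medians. The count of 6 came without control replicate 2, where 26.0% of all genes lay so, against 10.1% in the main analysis. Of all genes 12.7% to 15.2% lay so with another array left out. The shares were 9.34% with quantile normalization and 8.92% with aligned medians.

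With arrays left out, pooled medians ran from 0.064 to 0.16 for AP-1 and Egr genes (lowest without siRNA 2 replicate 2, and 0.067 without control replicate 1), from 0.029 to 0.078 for feedback genes (lowest without control replicate 1) and from -0.017 to 0.093 for other immediate early genes. The last was below 0 without siRNA 1 replicate 2 or siRNA 2 replicate 2. Medians of AP-1 and Egr genes ran from 0.082 to 0.30 for siRNA 1 and from -0.23 to 0.0033 between the siRNAs. Those of feedback genes ran from 0.0033 to 0.042 for siRNA 1, from 0.047 to 0.091 for siRNA 2 and from -0.033 to 0.060 between the siRNAs. Quantile normalization gave 0.060 for siRNA 1 and -0.026 between the siRNAs. Medians of other immediate early genes ran from -0.033 to 0.093 for siRNA 2 and from -0.14 to 0.014 between the siRNAs.

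Signs that turned with an array left out belonged to changes that did not pass. Pooled ranges were -0.022 to 0.12 for Fosb, -0.043 to 0.10 for Nr4a2 and -0.015 to 0.041 for Egr1. For siRNA 1 Dusp5 ran from -0.078 to 0.12. For siRNA 2 the ranges were -0.063 to 0.18 for Fosl1, -0.22 to 0.047 for Ier2, -0.22 to 0.067 for Nr4a2, -0.14 to 0.067 for Grb2 and -0.14 to 0.018 for Nf1. Between the siRNAs they were -0.16 to 0.22 for Fos, -0.10 to 0.12 for Ier3, -0.12 to 0.013 for Junb, -0.0004 to 0.15 for Dusp6 and -0.067 to 0.064 for Dusp4. Ier3 was at -0.0014 with quantile normalization and Dusp4 at 0.025 with aligned medians. The cause of these shifts was not tested.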
